A study of Mus musculus with 8 samples.

Results

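The genes examined were 9 that write, maintain or remove DNA methylation in the mouse: the methyltransferase genes Dnmt1, Dnmt3a and Dnmt3b, the cofactor gene Dnmt3l, the maintenance gene Uhrf1, the dioxygenase genes Tet1, Tet2 and Tet3, and the repair gene Tdg. They were taken by name, and every deposited region that shared at least 1 bp with 1 of these genes or with the 5000 bp to each side was kept. This gave 128 of the 220894 regions in the list. All 9 symbols matched the RefSeq gene table of assembly GRCm38.p6 (mm10).

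The series profiled genomic DNA of 8 mouse cell lines by bisulfite sequencing after capture with a mouse methylation kit (Agilent SureSelect). From brain tumours came 4 IDH mutant lines and 2 IDH wild-type lines, the wild-type ones labelled RAS glioma. The remaining 2 were immortalized astrocytes, wild-type for IDH, 1 of which expresses exogenous wild-type IDH1. The mutant tumour lines and both astrocyte lines came from N::TVA mice with floxed Cdkn2a, floxed Atrx and a further floxed allele that is not reported here, and the wild-type tumour lines came from N::TVA mice with floxed Cdkn2a alone. All mice were of mixed C57Bl/6, 129 and FVB/n background, and the lines grew in DMEM with 10% FBS. The study set mutant against wild-type lines. The values used here are 1 list of regions for the whole series, and how the lines entered it is not stated. Each region has a position and a score set by the authors, with no methylation level and no value of a single line. Mutant and wild-type lines were therefore not compared, no value has a replicate error, and the depth per line is unknown. Everything below describes which parts of these genes the list covered and how high the regions scored.

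DNA methylation in mammals sits mostly on cytosines followed by guanine (CpG). Dnmt3a and Dnmt3b place it on unmethylated DNA, Dnmt3l lacks catalytic activity of its own and stimulates them, chiefly in germ cells, and Dnmt1 copies the pattern to the new strand after replication, guided by Uhrf1, which binds hemimethylated CpG. The TET enzymes oxidise methylated cytosine using iron and 2-oxoglutarate, and Tdg excises the formylated and carboxylated products so that repair restores an unmodified base. Mutant IDH makes 2-hydroxyglutarate, an inhibitor of TET enzymes, and human gliomas with IDH mutations are known for widespread CpG hypermethylation.

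Coverage differed between the annotated transcription starts of these genes, and the bases just before a start show how many CpG lie there. Of the 16 starts that the RefSeq sequence table (GRCm38.p6) gives for the 9 genes, 4 are shown, 5′ to 3′ on the gene's strand with each CpG in capitals, because the coverage of these bases runs from none to all of them. For Dnmt3b and Tdg the bases inside the annotated gene are left out. The bases shown for Dnmt3a all lie inside its annotated gene, which begins at 3801559, before the first listed start. Dnmt3a start 1 (chr12:3806730-3806979, plus strand) has 38 CpG in 250 bases, none of them in a region. Dnmt3b (chr2:153649199-153649410, plus strand) has 16 CpG in 212 bases, of which the first 42 bases were in a region. Tdg (chr10:82629588-82629813, plus strand) has 16 CpG in 226 bases, all in a region that stops 8 bp short of the start. Uhrf1 start 1 (chr17:56303087-56303336, plus strand) has 10 CpG in 250 bases, all in a region that also contains the start.
Dnmt3a start 1: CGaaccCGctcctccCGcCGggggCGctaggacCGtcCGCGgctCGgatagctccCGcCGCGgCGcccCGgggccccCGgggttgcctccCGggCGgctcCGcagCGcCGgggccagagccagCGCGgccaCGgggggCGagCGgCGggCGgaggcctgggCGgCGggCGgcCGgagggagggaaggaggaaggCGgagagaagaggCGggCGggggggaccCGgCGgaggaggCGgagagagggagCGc
Dnmt3b start 1: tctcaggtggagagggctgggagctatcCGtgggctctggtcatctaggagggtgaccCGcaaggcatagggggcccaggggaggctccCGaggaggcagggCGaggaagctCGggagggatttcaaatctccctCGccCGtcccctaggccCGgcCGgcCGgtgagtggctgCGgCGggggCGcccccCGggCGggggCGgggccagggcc
Tdg start 1: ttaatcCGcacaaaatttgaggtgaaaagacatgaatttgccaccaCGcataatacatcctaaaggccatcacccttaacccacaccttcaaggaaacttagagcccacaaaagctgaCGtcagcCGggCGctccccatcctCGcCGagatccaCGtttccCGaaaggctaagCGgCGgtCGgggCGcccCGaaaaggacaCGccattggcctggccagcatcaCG
Uhrf1 start 1: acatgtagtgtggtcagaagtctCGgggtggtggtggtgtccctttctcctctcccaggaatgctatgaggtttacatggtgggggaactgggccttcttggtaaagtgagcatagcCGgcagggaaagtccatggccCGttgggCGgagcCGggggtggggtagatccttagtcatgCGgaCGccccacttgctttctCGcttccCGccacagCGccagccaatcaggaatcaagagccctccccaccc

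All 9 genes had regions, against 87.9% of 21887 protein-coding genes with the same flanks. Of the 128 regions, 106 touched the gene itself, 14 lay in an upstream flank and 8 in a downstream flank. Widths ran from 110 to 2840 bp and scores from 111 to 1628. A region's score rises with its width in this list, so each score was ranked as a percentile among all regions whose width differed by at most 50 bp, called the percentile for width below. By this measure the 128 regions together had a median of 49.0, close to the 51.0 of the whole list, and the genes differed widely around it.

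**Figure D1:**
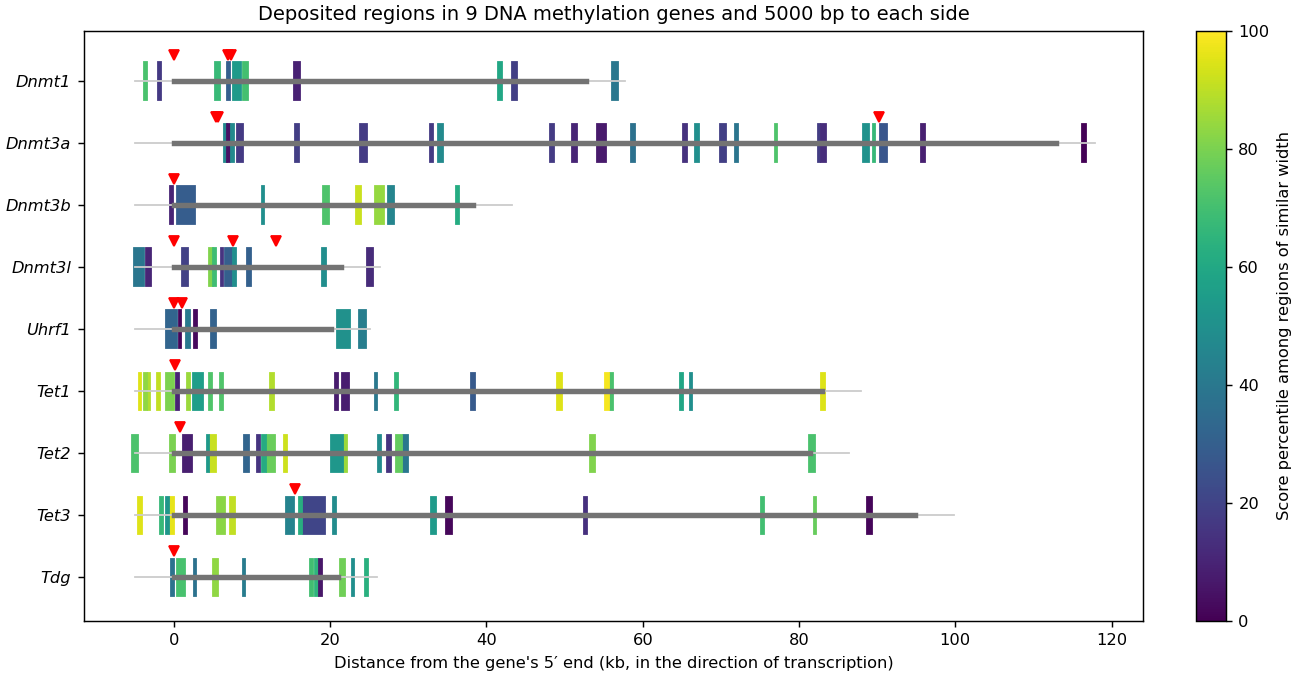
Regions (bars, coloured by percentile for width from 0 to 100) along each gene (dark line) and its flanks (thin line), by distance from the gene's 5′ end in kb, with annotated starts as triangles; regions narrower than 350 bp are drawn 350 bp wide. Tet1 carries high-percentile regions in its upstream flank, whereas low percentiles run the length of Dnmt3a.

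The de novo methyltransferase gene Dnmt3a had the most regions of the 9, 24, and the lowest percentiles. The gene spans 112885 bp on the plus strand of chromosome 12 (3801559 to 3914443), and 23 of its regions touched it, spread over its whole length with 8, 8 and 7 in 3 successive stretches of equal length. Their number was high for the length, at percentile 85.3 among 1506 protein-coding genes of similar length. Scores ran from 111 to 751 with a median of 378.5, and none of the 24 regions reached percentile 75, as 20.9% of all regions did. At or below percentile 25 lay 14 of the 24, against 23.1% of all regions. The median percentile for width was 18.0, and only 1.49% of 471 genes with a similar number of regions had a lower median.

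The low values of Dnmt3a were not confined to 1 stretch. The widest region (1160 bp, 3855641 to 3856800) scored 451, at percentile 7.03. The lowest percentile, 0.687, belonged to the single flank region, 530 bp wide with a score of 182, beyond the far end of the gene (3917741 to 3918270). The highest, 72.2, belonged to a narrow region of 260 bp with a score of 320 (3878481 to 3878740). Near the starts the regions sat close to the middle, with a median percentile of 47.4 over the 6 within 2000 bp of a coding start, against 17.4 over the 18 farther away. The neighbourhood was not low: the 259 other regions within 1000000 bp of the gene had a median of 51.9, and ranked among those neighbours alone, Dnmt3a still had a median of 18.8. The long noncoding RNA genes Dnmt3aos and Gm31623 overlap 1 and 5 of the regions.

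The other de novo gene, Dnmt3b, had 8 regions with a wide spread (38320 bp, plus strand of chromosome 2, 153649411 to 153687730). Scores ran from 146 to 1340, and the median percentile for width was 55.4. The highest-ranked regions lay well inside the gene, at percentile 92.2 (630 bp, score 1340, 153672741 to 153673370) and 84.1 (1250 bp, score 1327, 153675101 to 153676350). The lowest was the region that touches the start window, 210 bp wide with a score of 146 (153649031 to 153649240), at percentile 9.86. The widest region of the gene, 2310 bp, began just downstream of the start (153649841 to 153652150) and scored 926, at percentile 29.0. Dnmt3b thus held 2 of the 3 regions at or above percentile 75 among the 60 regions of the writer and maintenance genes.

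The cofactor gene Dnmt3l (21336 bp, plus strand of chromosome 10, 78042287 to 78063622) was densely covered, and 6 of its 11 regions lay within 5000 bp of Aire, which encodes the autoimmune regulator of the thymus. Regions took up 20.9% of the gene with its flanks, against a median of 11.0% over 4639 protein-coding genes of similar length. Scores ran from 118 to 947 and the median percentile was 30.2. The highest-ranked region (540 bp, score 947, 78046761 to 78047300) stood at 81.2, and the lowest (620 bp, score 361, 78038731 to 78039350), which lies inside Aire, at 10.2. Left with the 4 regions near no other protein-coding gene, the median was 39.5.

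The maintenance gene Dnmt1 (52683 bp, minus strand of chromosome 9, 20907206 to 20959888) lay near the middle of the scale. Its 10 regions scored 160 to 911, with a median percentile of 46.7 and a rank at percentile 48.9 among 4584 genes with a similar number of regions. The highest-ranked region was a narrow one of 170 bp with a score of 180 in the upstream flank (20963451 to 20963620), at 71.4. The lowest (740 bp, score 392, 20943741 to 20944480) stood at 9.09. The widest, 1010 bp with a score of 860 (20951361 to 20952370), began downstream of the third start and stood at 53.9. Between 20918361 and 20943740 a run of 25380 bp held no region, 40.5% of the gene with its flanks.

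Uhrf1 (20150 bp, plus strand of chromosome 17, 56303337 to 56323486) had its regions at the edges. All 5 that touched the gene lay in the third nearest its 5′ end or across that end. The 2 others lay beyond its far end near Kdm4b, a histone demethylase gene, and the 15550 bp in between (56308681 to 56324230) held none. Scores ran from 151 to 997 with a median percentile of 32.4, and 1 of the 7 regions passed 50, at 50.05. The median was 50 when ranked among regions within 1000000 bp of the gene, and 16.8 over the 2 regions near no other protein-coding gene. The region that passed 50 was the widest (1700 bp, score 997, 56324231 to 56325930). The lowest of the gene, 1.44, belonged to a region of 340 bp with a score of 151 just before the second start (56303931 to 56304270), and a nearby region of 370 bp (56305871 to 56306240) scored 171.

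**Figure D2:**
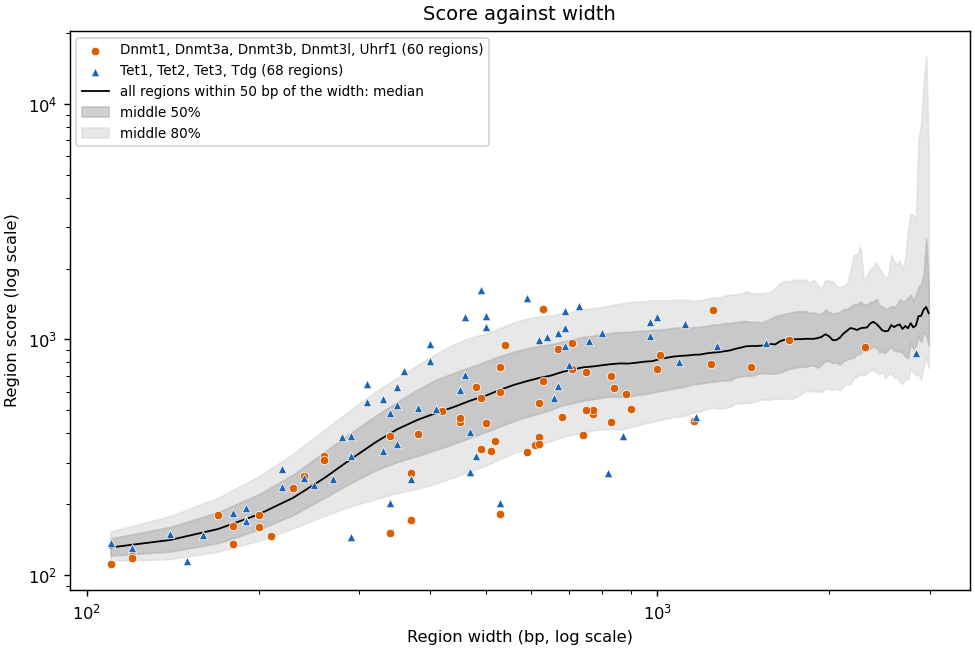
Score against width on log axes for the 128 member regions, writer and maintenance genes as circles (60 regions) and TET genes and Tdg as triangles (68 regions), over the median and the middle 50% and 80% of all regions of similar width. The circles lie mostly below the median line (median percentile 31.7) and the triangles mostly above it (65.4).

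Tet1 had the highest percentiles of the 9 genes. It spans 82900 bp on the minus strand of chromosome 10 (62804570 to 62887469) and had 22 regions, at percentile 89.2 for number among 1925 genes of similar length. Of these, 10 stood at or above percentile 75 and 3 at or below 25, against 20.9% and 23.1% of all regions. The median percentile was 72.5, which ranked Tet1 at 96.7 among 577 genes with a similar number of regions. The highest-scoring region of the 9 genes lay inside it, 490 bp wide with a score of 1628, at percentile 98.6 (62831841 to 62832330). A region of 590 bp with a score of 1505 followed (62837851 to 62838440) at 95.1, and one of 400 bp with a score of 956 straddled the far end of the gene (62804201 to 62804600) at 94.6. The widest region, 1270 bp with a score of 938 (62883751 to 62885020), stood at 55.7.

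The upstream flank of Tet1 was uniformly high. Its 4 regions, 310 to 360 bp wide, scored 543 to 736 and stood between percentiles 83.4 and 95.2. The lowest percentile of the gene was 7.51, for a region of 340 bp with a score of 203 (62866471 to 62866810). Low regions also stood beside the start, where a region of 470 bp scored 273 (62886801 to 62887270), at 9.64, although the region on the other side of the start, 970 bp wide, scored 1181 (62887461 to 62888430) at 80.4. The long noncoding RNA gene Gm51805 overlaps 13 of the 22 regions, those of the flank included.

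Tet2 (81460 bp, minus strand of chromosome 3, 133463677 to 133545136) also ranked high, with 18 regions, scores of 170 to 1388 and a median percentile of 66.3. That placed it at 90.3 among 900 genes with a similar number of regions. At or above percentile 75 stood 7 regions, and at or below 25 stood 3, against 20.9% and 23.1% of all regions. The highest-ranked region was 500 bp wide with a score of 1130 (133530611 to 133531110), at 92.3, and the lowest, 1170 bp wide with a score of 468 (133542871 to 133544040), began 350 bp downstream of the start, at 8.26. The widest, 1550 bp with a score of 963 (133523491 to 133525040), stood at 53.0. The third of the gene nearest the 5′ end, with the region across that end, held 12 of its 17 regions. A run of 27420 bp near the far end (133463801 to 133491220) held none. The surroundings of Tet2 scored high too: the 127 other regions within 1000000 bp had a median percentile of 59.5, and ranked among them alone its median was 45.5.

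Tet3 (94836 bp, minus strand of chromosome 6, 83362373 to 83457208) had regions at both ends of the scale. Of its 17 regions 5 stood at or above percentile 75 and 5 at or below 25, against 20.9% and 23.1% of all regions. The median was 54.3. The highest-ranked region lay in the upstream flank, 460 bp wide with a score of 1247 (83457241 to 83457700), at 96.3, and another flank region of 500 bp scored 1256 (83461271 to 83461770), at 95.1. The lowest were 530 bp with a score of 202 (83367921 to 83368450) at 1.48, 820 bp with a score of 270 (83421581 to 83422400) and 290 bp with a score of 145 (83455551 to 83455840). The widest region of all 9 genes, 2840 bp, lay downstream of the start given in the table (83437901 to 83440740) and scored 875, at 20.6. In the upstream flanks of the 3 TET genes the 9 regions together ran from percentile 52.7 to 96.3 with a median of 88.1. Flanks were measured from the end of the gene and not from a listed start. The 4 flank regions of Tet3 lay 15563 to 19593 bp from its only start in the table. The 5 in the upstream flanks of the writer and maintenance genes ran from 9.86 to 71.4 with a median of 16.7. Of those 5, 2 at Dnmt1 lay near S1pr2 and 2 at Dnmt3l inside Aire, whereas no upstream flank region of the TET genes lay within 5000 bp of another protein-coding gene.

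Tdg (20986 bp, plus strand of chromosome 10, 82629814 to 82650799) had 11 mostly narrow regions, with a median width of 270 bp, scores of 115 to 1121 and a median percentile of 63.6. Its rank was 82.6 among 3723 genes with a similar number of regions. The highest-ranked region was 690 bp wide with a score of 1121 (82634761 to 82635450), at 83.4, the widest was 970 bp with a score of 1035 (82630221 to 82631190), at 71.0, and the lowest was 150 bp with a score of 115 (82648531 to 82648680), at 5.95. The neighbouring gene Glt8d2 lay within 5000 bp of 6 of the 11, and the 5 regions near no other protein-coding gene had a median of 41.5.

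**Figure D3:**
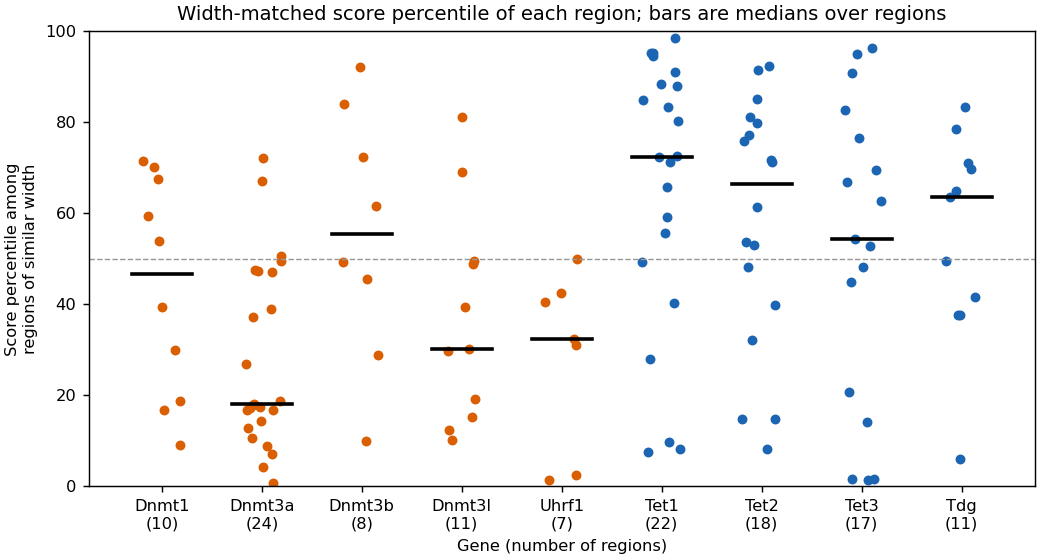
Percentile for width of every region (points) and the median over regions (bars) for each gene, with the number of regions in brackets and a dashed line at 50. Medians run from 18.0 at Dnmt3a to 72.5 at Tet1.

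Set side by side, the genes that remove methylation scored higher for width than those that write or maintain it. The 68 regions of Tet1, Tet2, Tet3 and Tdg had a median percentile of 65.4 (quartiles 40.1 and 81.6). Of them 24 stood at or above 75 and 12 at or below 25, against 20.9% and 23.1% of all regions. The 60 regions of Dnmt1, Dnmt3a, Dnmt3b, Dnmt3l and Uhrf1 had a median of 31.7 (quartiles 16.8 and 49.6), with 3 at or above 75 and 24 at or below 25. Regions of 1 gene share their surroundings and are not replicates, so this is a description with no test. The contrast was not the same in every gene, since Dnmt3b had a higher median than Tet3, and Dnmt3a supplied 14 of the 24 low regions. Without Dnmt3a the writer and maintenance genes had a median of 39.96. Of the 9 gene medians 5 were above 50, against 46.4% of 16404 protein-coding genes with at least 3 regions. Over only the regions that touched the gene, medians were 68.5 at Tet1, 61.3 at Tet2, 48.1 at Tet3 and 53.2 at Tdg. They were 53.9 at Dnmt1, 18.2 at Dnmt3a, 61.6 at Dnmt3b, 39.5 at Dnmt3l and 31.1 at Uhrf1. Dnmt3b thus stood above Tet2, Tet3 and Tdg by this count, and Dnmt1 above Tet3 and Tdg.

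Transcription starts of the 9 genes were seldom inside a region. Of 16 annotated starts 3 lay in one: the second start of Dnmt1, the second of Dnmt3l and the first of Uhrf1. Among all 21263 starts of protein-coding genes in the table, 37.6% did. The window from 250 bp before to 50 bp after the start was touched by a region at 9 of 16 starts, against 58.3% of all starts. Counted by gene, 7 of 9 had at least 1 such window touched, against 60.3% of genes, the exceptions being Dnmt3a and Tet2.

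The starts that lay outside regions were mostly those with many CpG. At least 20 CpG in the 300 bp window were found at 8 of the 16 starts, and none of the 8 lay in a region, against 35.1% of all starts that dense. For the 6 with at least 30 CpG the corresponding share of all starts was 17.1%, so a start that dense was usually outside a region anywhere in the genome. With 10 to 19 CpG, 2 of 4 starts of these genes lay in a region, against 67.3% of all such starts. Some starts are near neighbours: the first and second of Dnmt3a are 180 bp apart and share part of their window.

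At 6 of the 8 dense starts a region stood within 1000 bp on each side, with the start in the gap between them, and 84.8% of all dense starts outside regions were placed so. The gaps of the 8 had a median of 675 bp, against 640 bp over all dense starts outside regions. Tet2 had the densest window (57 CpG, denser than 99.8% of all starts), and its start lay in a gap of 990 bp (133544041 to 133545030) between regions scoring 1021 upstream and 468 downstream. The third start of Dnmt1 (33 CpG) lay in a gap of 450 bp (20952371 to 20952820) between regions scoring 160 upstream and 860 downstream. The start of Dnmt3b (30 CpG) lay in a gap of 600 bp between scores of 146 and 926, and the second start of Uhrf1 (33 CpG) in a gap of 620 bp between 151 and 466. The start of Tet3 (22 CpG) lay in a gap of 730 bp between 805 and 150. The start of Tdg (26 CpG) lay in a gap of 390 bp (82629831 to 82630220) between 361 and 1035. The exceptions were the first and second starts of Dnmt3a (46 and 47 CpG), shown above in part, which fell in 1 gap of 11870 bp (3796181 to 3808050). This gap takes in the upstream flank and the first 6492 bp of the gene.

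**Figure D4:**
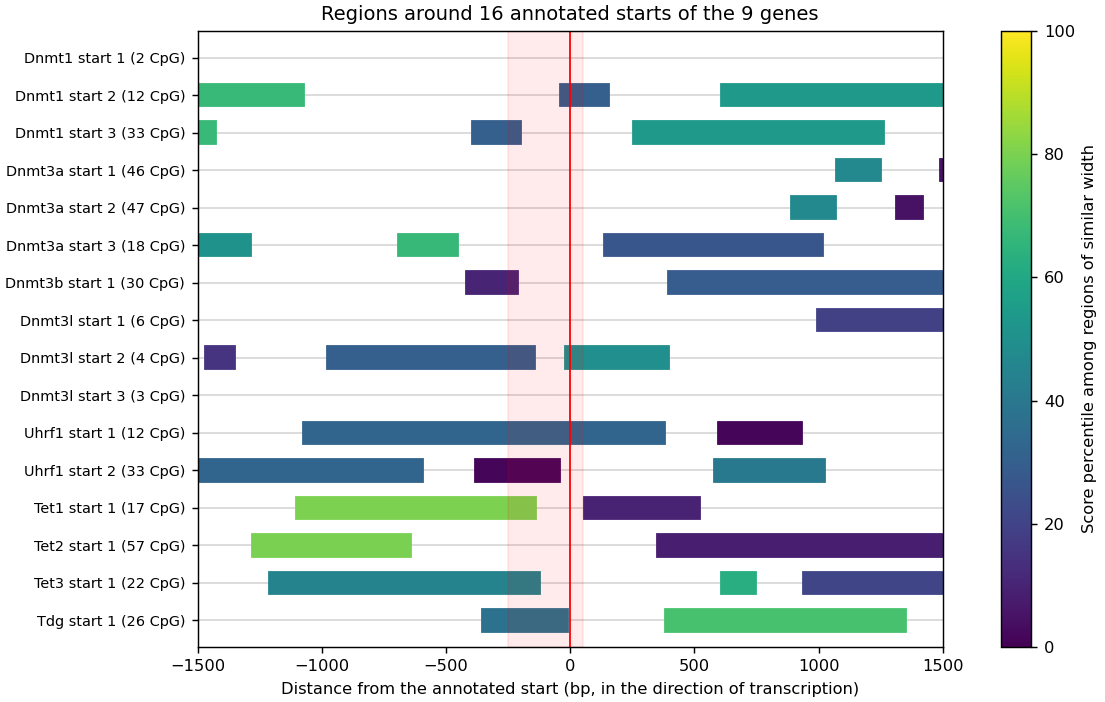
Regions (bars, coloured by percentile for width) within 1500 bp of each of the 16 annotated starts, in bp along the direction of transcription; the line marks the start and the shading the 300 bp window. The starts with at least 20 CpG lie in gaps flanked by regions, except at Dnmt3a, where the nearest region is 891 bp downstream of the second start.

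Starts with fewer than 20 CpG varied in their surroundings. The first start of Dnmt1 (2 CpG) lay in a gap of 6940 bp and the third start of Dnmt3l (3 CpG) in one of 9090 bp, with no shoulder regions close by. The second start of Dnmt3l had 4 CpG and lay inside a region of 420 bp scoring 496, at percentile 49.5. The start of Tet1 (17 CpG) fell in the smallest gap, 190 bp wide (62887271 to 62887460), and the third start of Dnmt3a (18 CpG) in one of 590 bp (3891291 to 3891880), both with regions close by on each side. Averaged over all starts with at least 20 CpG, coverage had the same form of a dip with shoulders: 35.1% at the start, 68.9% at 400 bp upstream and 63.9% at 700 bp downstream.

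**Figure D5:**
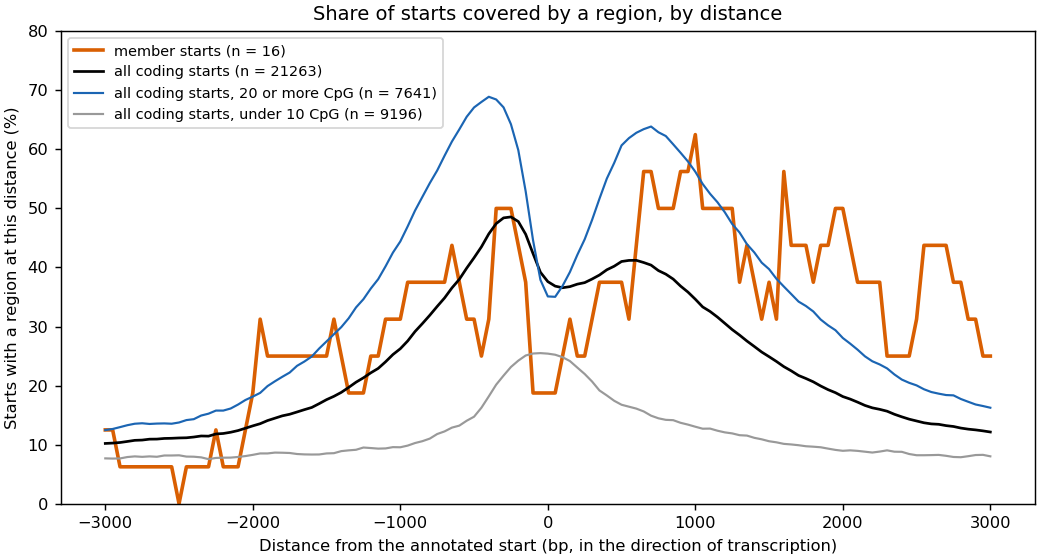
Share of annotated starts that a region covers (%) by distance from the start in bp, for the 16 starts of the 9 genes, all protein-coding starts, and those with at least 20 or under 10 CpG in the 300 bp window. The 9 genes have 18.8% at the start and reach their highest downstream share, 62.5%, at 1000 bp. All starts with at least 20 CpG have 56.2% there and reach their own highest, 63.9%, at 700 bp. All starts have 34.6% there and reach 41.2% at 600 bp.

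Partners of these genes were taken from 7 lists of the methylation and demethylation pathway, 63 other genes in all. All 63 had a region, against 87.9% of all protein-coding genes. Of the 60 with at least 3 regions, 35 had a median percentile above 50, against the 46.4% given above. Among maintenance partners Hells, a chromatin remodeller needed for DNA methylation, was highest at 70.3 and Chaf1a, a chromatin assembly subunit, lowest at 45.7. Among silencing partners Morc2a stood at 75.4 and the histone methyltransferase gene Ehmt2 at 19.7, near Dnmt3a. Of the methyl-CpG readers Zbtb38 stood at 63.3 and Mbd3 at 27.3. Of the base excision list Gadd45b was lowest at 24.5.

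Genes of the TET partner and CXXC list, and those that supply or compete for the cofactors, spread as widely. Ogt, a glycosyltransferase that binds TET proteins, stood at 71.1 and the CXXC gene Cxxc5 at 18.9. Mat2a, which makes the methyl donor S-adenosylmethionine, had the highest gene median of the 60 with at least 3 regions, 76.1, and Gnmt, a methyltransferase that consumes it, the lowest, 14.3. Glud1, which makes 2-oxoglutarate from glutamate, stood at 70.5, and Idh2, the mitochondrial isocitrate dehydrogenase gene, at 23.6. Idh1 stood at 68.3 with 7 regions. In the 9 genes 3 of 16 annotated starts lay inside a region, against 37 of 68 in these 63 partners. Of all starts of protein-coding genes 37.6% did, and these sets were not matched for CpG.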

How the data were processed

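Genomic DNA was enriched with the Agilent kit, per the labels' protocols, and aligned to mm10 with Novoalign 3.7.1, with Picard also named, per the submitters' processing notes. How regions and scores were made is not stated there. The file deposited by the authors holds 1 score per region for the whole series, a whole number of at least 100, and the track line declares narrowPeak, per the file headers. What the score counts is not stated. The members and lists were chosen with earlier results of these data known.

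Regions were joined by overlap of at least 1 bp to protein-coding genes of the RefSeq table (GRCm38.p6). Percentiles are mid-ranks. Genes were ranked by the median over their regions among genes, Y left out, with at least 3 regions and a number differing by at most 2; lengths were matched within 25%, flanks included. Starts, strand and sequences come from the RefSeq promoter table, which matched 17492 of 21887 genes. The table of genes has no exons, so exonic, intronic and UTR positions are not given. Regions named are those at a start window, the widest, and the highest and lowest by percentile in each gene, with some other low, high or flanking regions chosen after their values were seen. From each other list the genes with the highest and lowest median are named, except 1 that is not reported here, and Idh1 was added after its value was seen. The planned test between groups needs values per line and was not run. Python 3.11.15 with pandas 2.3.3, numpy 2.4.6 and scipy 1.17.1 was used; the percentile code was tested on simulated scores. Coordinates count from 1.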

Additional observations from a re-analysis of the deposited data

How the results depend on the processing

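The number of regions stayed within 106 to 153 over the 6 alternatives, which changed the flank, the overlap rule or the lowest score. The median percentile of all member regions stayed between 45.9 and 53.8 over 20 alternatives; the highest value came from leaving out Dnmt3a. Dnmt3a (16.7 to 19.5) and Dnmt3l (24.1 to 42.9) stayed below 50 and Tet1 (67.9 to 73.8) above it under the 11 alternatives for each gene. The median of the TET genes and Tdg stayed between 60.3 and 70.5 over 15 alternatives, and that of the writer and maintenance genes between 30.1 and 39.96 over 16. The other 6 genes reached or crossed 50 under at least 1 alternative. Among regions within 1000000 bp of the gene Dnmt1 had 63.7, Uhrf1 50 and Tet2 45.5. Without regions near another gene Tdg had 41.5 and Uhrf1 16.8. On its own chromosome Tet3 had 46.5. With a flank of 0 bp Tet3 had 48.1 and Dnmt1 53.9, and with flanks of 10000 bp Dnmt3b had 49.2. With the mean in place of the median over regions, Uhrf1 ranked at 9.78 among genes instead of 24.6. Tet2 then ranked at 82 instead of 90.3 and Tdg at 71.5 instead of 82.6. Dnmt1 moved from 48.9 to 41.2, Dnmt3b from 66.6 to 73.6 and Dnmt3l from 19.1 to 22.8. Dnmt3a (2.55), Tet1 (97.1) and Tet3 (61.3) stayed close to their ranks by the median. The ranking by distance class, the local ranking, the omission of single genes and the other counts of starts were chosen after seeing the data.

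With only the start richest in CpG of each gene, 0 of 9 starts lay inside a region, against 36.7% over all genes; this selects the dense starts by construction. No paired analysis was possible because the list holds no value of a single line, and for the same reason no line was left out. For regions under about 150 bp the matched widths lie mostly above the region's own, which lowers the percentile. Depth per line is unknown, and an uncovered stretch was not tested for whether the kit targets it.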

Other observations

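Within the 9 genes, regions leaned towards the 5′ end. Of 106 regions that touch a gene, 54.7% had their midpoint in the third of the gene nearest its 5′ end or upstream of that end. In the middle stretch of the same length lay 21.7%, and 23.6% lay in the rest. Over 6086 protein-coding genes in the same range of length the shares were 46.6%, 26.0% and 27.3%. Uhrf1 (5 of 5) and Dnmt1 (5 of 7) had the largest such shares of the 9 genes, and Dnmt3b (2 of 7) the smallest. Covered length was above the median of genes of similar length in each of the 9, from 9.06% of the gene and flanks at Dnmt1 (median of similar genes 8.03%) to 20.9% at Dnmt3l. At Uhrf1 it was 19.7% (median 11.3%).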
